A study of Mus musculus with 18 samples.

Results

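Binding of the transcription factors Pitx1 and Tbx5 was examined around Tbx15 and Tbx18, a pair of closely related T-box genes, in the limb buds of mouse embryos. Pitx1 was mapped in the hindlimb at e11.5 and Tbx5 in the forelimb at e10.5 by chromatin immunoprecipitation followed by sequencing (ChIP-seq), with 1 sample each, paired-end reads and a homemade antibody for each factor. Both samples came from the outbred strain CD1 and are labelled wild type, and the labels give neither the number of embryos nor a second culture or litter. The measurement is the summit, the base at which a called peak is highest, together with the score that the authors deposited for it, read here as −log10 of the q-value of that peak. A summit was a member when the nearest protein-coding gene within 100 kb was Tbx15 or Tbx18. By this rule 44 of 54941 Pitx1 summits and 7 of 10273 Tbx5 summits were members. Tbx15 held 23 Pitx1 and 3 Tbx5 summits, and Tbx18 held 21 and 4. Peak names of the Tbx5 list and the name of a second, shorter Pitx1 list contain "rep2", and the labels leave unsaid which replicate is meant. Read depth is unknown, each factor is represented here by 1 sample, and the 2 lists differ at once in factor, antibody, limb and stage, so all values are descriptions of these lists and no test between factors or limbs was possible. Peak lists carry no transcript levels, so the labelled limb tissue was not checked against marker genes.

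T-box proteins bind DNA through a conserved domain and switch their target genes on or off. Tbx15 and Tbx18 belong to a subgroup of the family, together with Tbx22, whose members can repress transcription with corepressors of the Groucho type. Both genes are active in mesenchyme of the proximal limb bud and the girdles. Tbx15 is known for its part in shaping the scapula and other skeletal elements and in coat patterning, and Tbx18 for its roles in somites, ureter mesenchyme and the pacemaker region of the heart. Pitx1 is the homeodomain factor that gives the hindlimb its character, and Tbx5 is the T-box factor that starts the forelimb bud.

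The sequence at the start of Tbx18, taken from RefSeq (GRCm38.p6, the assembly behind build mm10), is shown because the forelimb Tbx5 peak lay on the first bases of the gene. It covers chr9:87731231-87731510 on the minus strand, which is 250 bases before the gene and the first 30 bases of it. The capitals mark the Tbx5 summit at position 87731257, 3 bases into the gene, with 10 bases on each side.
Tbx18 start: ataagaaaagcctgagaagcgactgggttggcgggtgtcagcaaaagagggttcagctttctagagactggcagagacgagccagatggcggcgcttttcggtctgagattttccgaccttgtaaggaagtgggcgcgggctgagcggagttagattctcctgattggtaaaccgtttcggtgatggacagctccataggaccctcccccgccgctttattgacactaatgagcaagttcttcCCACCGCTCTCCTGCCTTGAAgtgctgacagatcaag

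The Pitx1 summit of the hindlimb at this start lay at position 87731166, 94 bases into the gene and 65 bases past the last base printed. Of 32851 RefSeq promoter windows of 300 bases, 1.18% held a Tbx5 summit and 8.96% a Pitx1 summit. Among 16 windows of 13 T-box genes, only that of Tbx18 held a Tbx5 summit. Only that of Tbr1, a T-box gene of the brain, held a Pitx1 summit. No window of Tbx2, Tbx3, Tbx5 or Tbx15 was among the 16, although all of these genes were assigned Tbx5 summits. Searched on both strands, TAATCC, a site of homeodomain factors of the Pitx1 class, and AGGTGT, the core of a T-box site, were not among the 300 bases of the Tbx18 window. These letters occurred in 7.06% and 13.7% of all windows. The window holds the Tbx5 summit but not the Pitx1 summit, so the search says nothing of the sequence at the latter. The promoters of Tbx2, Tbx3, Tbx5 and Tbx15 were not analysed here.

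Tbx15 and Tbx18 offer nearly the same amount of sequence to the assignment, which makes their counts comparable. Tbx15 (gene 21384) spans chromosome 3 from 99240348 to 99354260, a length of 113.9 kb, and the stretch assigned to it was 223.5 kb. Tbx18 (gene 76365) spans chromosome 9 from 87702800 to 87731260, a length of 28.5 kb, and its stretch was 228.5 kb. Pitx1 summits stood at 102.9 per Mb of stretch for Tbx15 and at 91.9 per Mb for Tbx18. Tbx5 summits stood at 13.4 per Mb for Tbx15 and at 17.5 per Mb for Tbx18. Of 21887 protein-coding genes, 55.1% held a Pitx1 summit and 18.8% a Tbx5 summit, so the presence of Pitx1 alone would not set either gene apart.

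The number of summits stood high among genes with a stretch of similar length. Among 1629 other genes with a stretch of 178.8 to 279.3 kb, the range around that of Tbx15, the median was 3 Pitx1 summits and 98.7% had a lower Pitx1 density than Tbx15. Among 1588 other genes with a stretch of 182.8 to 285.6 kb, the range around that of Tbx18, the median was 4 Pitx1 summits and 97.7% had a lower density. For Tbx5 the median was 0 in both comparisons, and 91.1% of genes had a lower density than Tbx15 and 94.96% a lower density than Tbx18. Both densities were matched or exceeded by 14 genes for Tbx15 and by 21 genes for Tbx18. The 2 genes therefore lay near the upper end for both factors, with others beside them. Genes without any Pitx1 summit, 22.4% of the set for Tbx15 and 22.2% of that for Tbx18, count in these shares.

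**Figure D1:**
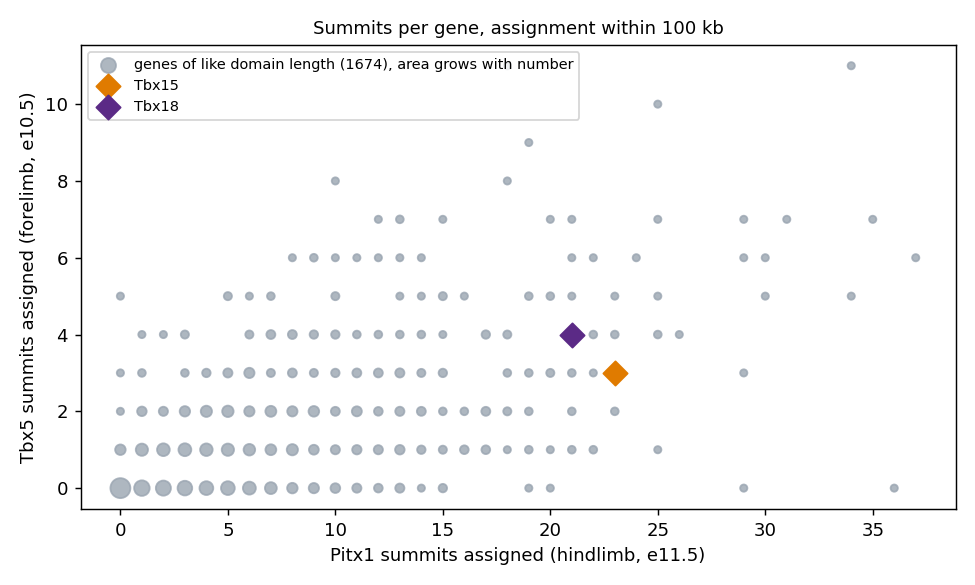
Number of Pitx1 summits (x axis) and Tbx5 summits (y axis) assigned within 100 kb to each protein-coding gene whose assigned stretch was of a length similar to that of Tbx15 or Tbx18; grey points are genes, and the diamonds are Tbx15 (23 and 3) and Tbx18 (21 and 4). Most genes sit at the lower left, and both members lie to the upper right of them.

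The genes most like each member in the 2 counts were of varied function. Likeness was measured as the distance in log2(count + 0.5) of Pitx1 and of Tbx5, over the 2 samples, among genes with a similar stretch. For Tbx15 the closest were Hlcs, with the same 23 Pitx1 and 3 Tbx5 summits, Rasgef1b (22 and 3), Lpar1 (21 and 3) and, tied, Chd2, Sox2 and Lef1, a nuclear effector of Wnt signalling (20 and 3 each). For Tbx18 they were Pax3 (22 and 4), a regulator of muscle precursors, Rai14 (22 and 4), Uvrag (23 and 4), Zeb2 (23 and 4) and, tied, Aff1, Rgl1 and Shq1 (18 and 4 each). Of the 3 Tbx5 summits at Hlcs none was shared with Pitx1, and of the 3 at Rasgef1b all were, so equal counts went with different degrees of overlap.

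Pitx1 summits at Tbx15 lay mostly inside the gene and were denser towards its lower-coordinate end. Of the 23, 17 lay inside the gene, 4 below its lower-coordinate end and 2 above its upper end. The gene itself makes up 113.9 kb of the 223.5 kb stretch. Below it the stretch ends midway to Wars2, which lies 19.1 kb away, so the 4 summits there fell in a short sequence. The first 30 kb of the gene from the lower end held 10 of the 17, and the remaining 83.9 kb held 7. The cut at 30 kb was not planned beforehand. Scores ran from 2.03 to 50.3 with a median of 8.90, against a median of 7.07 for the whole Pitx1 list, and 2 of the 23 were among the highest 10% of the list. The occupancy was thus made of many peaks of ordinary score and a few higher ones.

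The strongest Pitx1 summit at Tbx15 scored 50.3 (rank 3507 of 54941) at position 99266964, inside the gene and 26.6 kb from its lower end. It had no Tbx5 partner, the nearest Tbx5 summit being 11136 bp away. The next scored 46.2 at position 99324529, 84.2 kb into the gene, and had a Tbx5 summit 291 bp away. Summits with scores of 29.9 at 99249766, 26.4 at 99277989 and 22.2 at 99241579 completed the 5 highest, and all lay inside Tbx15. The one at 99241579 also lay inside Gm46817, an annotated noncoding RNA gene within Tbx15, and the library does not tell which of the 2 it belongs to. Of the summits below the lower end, the strongest scored 21.3 and lay 1.18 kb outside Tbx15, inside the noncoding gene Gm38468.

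Tbx5 in the forelimb had 3 summits at Tbx15 and each had a Pitx1 summit of the hindlimb close by. The first, at position 99278100 inside the gene, scored 11.7 (rank 3764 of 10273) and lay 111 bp from the Pitx1 summit with a score of 26.4. The second, at 99324238 inside the gene, scored 28.2 (rank 1686), and its distance of 291 bp from the Pitx1 summit of 46.2 put it outside the 200 bp used to call a site shared. The third, at 99447370 and 93.1 kb above the gene, scored 30.9 (rank 1533) and lay 3 bp from a Pitx1 summit that scored 13.6. Shared sites thus numbered 2 of 3 for Tbx5 and 2 of 23 for Pitx1 at Tbx15.

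At Tbx18 the Pitx1 summits gathered around the start of the gene. Of the 21, 7 lay inside the gene, 12 above its upper-coordinate end, which is the start because the gene runs on the minus strand, and 2 below its lower end. Within 10 kb of the start lay 14 Pitx1 and 3 Tbx5 summits. The 14 covered 19.1 kb, with neighbours 587 to 3739 bp apart and a median spacing of 1336 bp. The 10 kb window was chosen after the positions were seen.

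Few genes had as many Pitx1 summits around an end. Of 43774 ends of protein-coding genes, 11 had 14 or more within 10 kb, and they belonged to Tbx18 and 7 other genes, namely Dlx6, Hand2, Hoxa3, Hoxc8, Hoxd8, Hoxd9 and Hoxd10. Each of these 7 is a homeobox gene or, for Hand2, a basic helix-loop-helix gene of limb patterning, and the Hoxd genes share their windows as neighbours. The median over all ends was 0. As many as 3 Tbx5 summits were found at 59 ends, the start of Tbx18 among them. The lower end of Tbx15 had 6 Pitx1 and 0 Tbx5 summits in the same window, a number reached by 455 ends, while its upper end and the lower end of Tbx18 had 1 Pitx1 summit each.

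**Figure D2:**
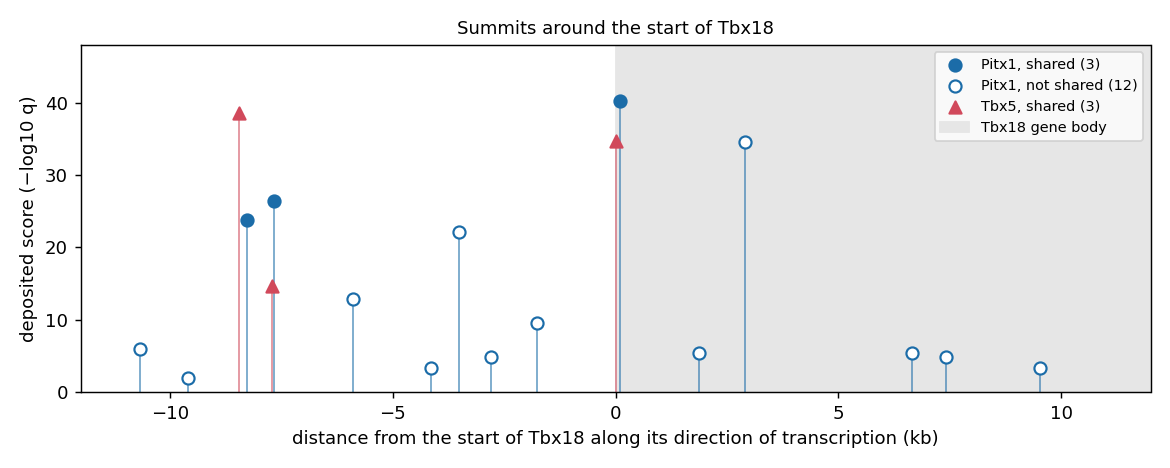
Deposited score (−log10 q, y axis) of each summit by its distance from the start of Tbx18 along the direction of transcription (x axis, kb, gene body shaded); circles are Pitx1 and triangles Tbx5, filled where a summit of the other factor lies within 200 bp. All 3 Tbx5 summits are filled, 1 at the start itself and the others 7.72 and 8.44 kb before it.

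Most of the summits around the Tbx18 start were modest. Of the 14 Pitx1 summits there, 6 scored 10 or more and 5 were in the second Pitx1 list. The strongest Pitx1 summit assigned to Tbx18 scored 47.2 (rank 3804) and lay away from the start, at position 87824904 and 93.6 kb above the gene. The second was the one at the start, with a score of 40.2 (rank 4650). The others of the 5 highest scored 35.4 at 87710429 and 34.5 at 87728360, both inside the gene, and 26.4 at 87738931, 7.67 kb before the start. Over all 21 summits scores ran from 2.03 to 47.2 with a median of 5.92, below the 7.07 of the whole list.

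All 4 Tbx5 summits at Tbx18 were shared with Pitx1. The one at the start scored 34.7 (rank 1361) and lay 91 bp from the Pitx1 summit of 40.2. A pair of Tbx5 summits followed upstream, 7.72 and 8.44 kb before the start, with scores of 14.7 at 87738975 and 38.6 at 87739701. Their Pitx1 partners scored 26.4, 44 bp away, and 23.8, 183 bp away. The second of these sites lies inside Gm36767, an annotated noncoding RNA gene. The strongest scored 115.0 (rank 300 of 10273) at 87824861, 93.6 kb before the start, and was 43 bp from the strongest Pitx1 summit of the gene. A shared site thus stood 93.1 kb above the upper-coordinate end of Tbx15 and 93.6 kb above that of Tbx18, close to the 100 kb limit of the rule. That end is the start of Tbx18, and the direction of Tbx15 was not used here, so the sites need not hold like positions.

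Sharing was frequent for Tbx5 at these genes. In the whole lists 39.5% of Tbx5 summits and 7.39% of Pitx1 summits had a partner within 200 bp, and 8.85% of protein-coding genes held a shared site. Over both members 6 of 7 Tbx5 summits were shared, or 85.7% (exact Clopper-Pearson 95% interval 42.1 to 99.6), and 6 of 44 Pitx1 summits, or 13.6% (5.17 to 27.4). The intervals treat summits as independent, while the Tbx5 summits at 87738975 and 87739701 are close neighbours, so they are no test against the shares of the lists. Within 100 bp the shared sites numbered 1 at Tbx15 and 3 at Tbx18, and within 500 bp 3 and 4. These intervals cover the counting of summits only, and 7 summits from 2 genes are a small number. All 7 Tbx5 summits scored at or above the median of 8.29 of their list.

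The second Pitx1 list, a subset that the authors deposited, kept 32.4% of the longer list and 17 of the 44 members. It held 10 of 23 at Tbx15, or 43.5% (exact 95% interval 23.2 to 65.5), and 7 of 21 at Tbx18, or 33.3% (14.6 to 57.0). In 10 classes of score, the classes of these summits kept an average of 36.9% for Tbx15 and 39.2% for Tbx18 over the whole list, so the intervals contain what their scores would give. The Pitx1 summit at the Tbx18 start, with a score of 40.2, was not in the second list. Its score class, from 35.4 to 768.8, kept 93.5%, and the class below, from 18.9 to 35.4, kept 72.3%. The score lies near the bottom of its class. The other 5 shared Pitx1 summits of the members were in it.

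Beyond 100 kb both genes faced long stretches without protein-coding genes, and the strongest sites between their coding neighbours lay there. Between Tbx15 and Spag17, a gene of the sperm flagellum, 531.2 kb held 27 Pitx1 and 12 Tbx5 summits, of which 10 Tbx5 summits were shared (83.3%, exact 95% interval 51.6 to 97.9). Between Cep162, which encodes a centriole protein, and Tbx18, 447.3 kb held 36 and 15, with 7 shared (46.7%, 21.3 to 73.4). Between Tbx18 and Nt5e, which encodes an enzyme that makes adenosine outside the cell, 596.3 kb held 37 and 11, with 8 shared (72.7%, 39.0 to 94.0). On the other side of Tbx15 the gene Wars2, a mitochondrial tRNA synthetase gene, lies 19.1 kb away, so Tbx15 has its gene-free flank on 1 side and Tbx18 on both. These counts include the members that lie in the stretches.

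The 3 stretches ranked high among stretches of their size. Of 409 stretches of 400 to 700 kb between neighbouring protein-coding genes, the median held 12.5 Pitx1 and 2.105 Tbx5 summits per Mb. Empty stretches count in these medians, as 327 of the 409 held a Pitx1 summit and 244 a Tbx5 summit. Whether reads can be placed in the empty ones was not checked. The stretch from Tbx15 to Spag17 had 50.8 Pitx1 (rank 44) and 22.6 Tbx5 (rank 12) per Mb. The stretch from Cep162 to Tbx18 had 80.5 (rank 8) and 33.5 (rank 3), and the one from Tbx18 to Nt5e 62.0 (rank 22) and 18.4 (rank 16). By shared sites per Mb they ranked 2, 7 and 8, with 18.8, 15.7 and 13.4, while the median stretch had none. The highest rank was that of the stretch from Mtx2 to Gm50595, with 20.9 per Mb, and the third that from Veph1 to Shox2, with 17.8. Mtx2 is a neighbour of the Hoxd cluster, and Shox2 is a homeobox gene of the proximal limb. The size range of the stretches was chosen after the positions were seen.

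**Figure D3:**
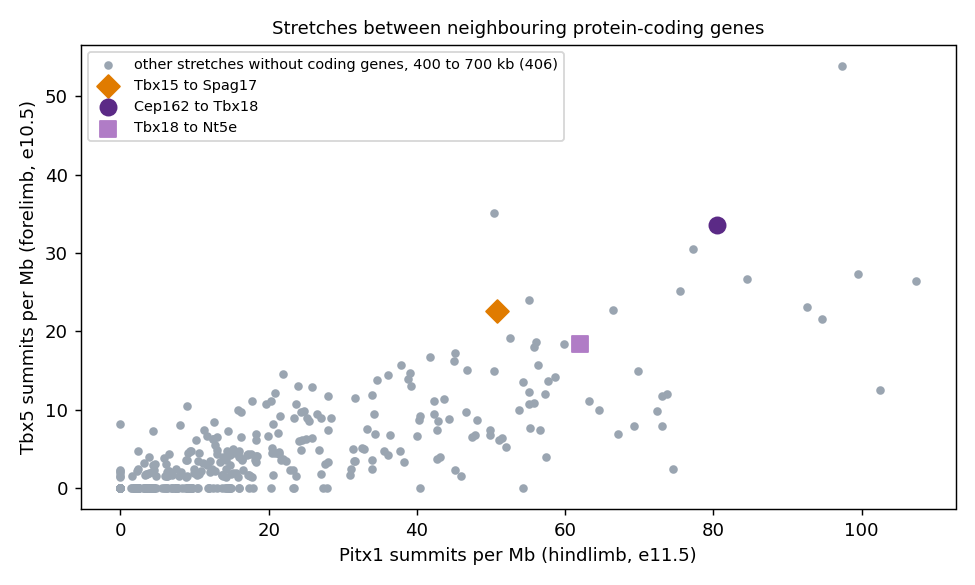
Pitx1 summits per Mb (x axis) and Tbx5 summits per Mb (y axis) in each of 409 stretches of 400 to 700 kb between neighbouring protein-coding genes; grey points are other stretches and coloured marks the 3 beside Tbx15 or Tbx18. The 3 marks lie at 50.8 to 80.5 Pitx1 and 18.4 to 33.5 Tbx5 summits per Mb, far above the medians of 12.5 and 2.105.

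Above Tbx15 a run of shared sites held the highest scores between its coding neighbours. At 99666221, 312.0 kb above the gene, a Tbx5 summit scored 405.5 (rank 23 of 10273) and lay 11 bp from a Pitx1 summit of 172.0 (rank 441 of 54941). Judged by the lower of the 2 relative ranks, this pair was number 10 of all 4062 shared sites. A second pair lay close by at 99664111, with 103.5 for Tbx5 and 126.5 for Pitx1, 43 bp apart. A pair at 99573817, 219.6 kb above the gene, scored 83.9 and 121.4, and one at 99709778, 355.5 kb above, scored 188.9 and 26.4. The last of these was strong for Tbx5 and moderate for Pitx1, so the factors did not rank the sites alike.

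The nearer gene differed along this stretch. Of the 10 shared sites between Tbx15 and Spag17, 4 were nearer to Tbx15 and 6 nearer to Spag17, among them the pairs at 99664111, 99666221 and 99709778. The highest-scoring pair lay 219.2 kb from Spag17. Spag17 itself was assigned 24 Pitx1 and 6 Tbx5 summits within 100 kb, with top scores of 359.2 and 122.8, and 1 of the 6 was shared. Summit lists alone do not tell which gene a distant site acts on.

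Tbx18 had strong shared sites on both sides. Before the start, at 87985625 and 254.4 kb away, a Tbx5 summit scored 221.1 (rank 89) with a Pitx1 summit of 83.4 at 62 bp. At 88049612, 318.4 kb away, Tbx5 scored 196.1 (rank 115) and Pitx1 24.7, and at 88069032, 337.8 kb away, Tbx5 scored 94.8 and Pitx1 200.2 (rank 307). At 87985625 and 88049612 the Tbx5 summit ranked higher in its list than the Pitx1 summit did, and at 88069032 the ranks were reversed in relative terms.

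On the other side of Tbx18 the shared sites leaned towards Pitx1. At 87377175, 325.6 kb below the gene, the Pitx1 partner scored 311.4 (rank 96) and Tbx5 65.2 (rank 636), 86 bp apart. At 87443910 Pitx1 scored 116.3 and Tbx5 17.8, at 87557263 Pitx1 scored 100.1 and Tbx5 17.0, and at 87401939 Pitx1 scored 76.4 and Tbx5 7.64. The site at 87552731 ran the other way, with 20.5 for Pitx1 and 38.6 for Tbx5. Of the 7 shared sites below Tbx18, 5 were nearer to Cep162, and of the 8 before its start 3 were nearer to Nt5e.

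Tbx5 summits without a Pitx1 partner numbered 8 below Tbx18, against 3 in the stretch before its start and 2 in the stretch above Tbx15. The 8 included one at 87558245 with a score of 77.9, the highest Tbx5 score of that side, which lay 958 bp from the nearest Pitx1 summit. Others at 87406808 and 87408346 lay 409 and 485 bp from one. In the whole region between the coding neighbours, 16 of 27 Tbx5 summits were shared for Tbx18 (59.3%, exact 95% interval 38.8 to 77.6) and 11 of 14 for Tbx15 (78.6%, 49.2 to 95.3), and these intervals overlap.

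**Figure D4:**
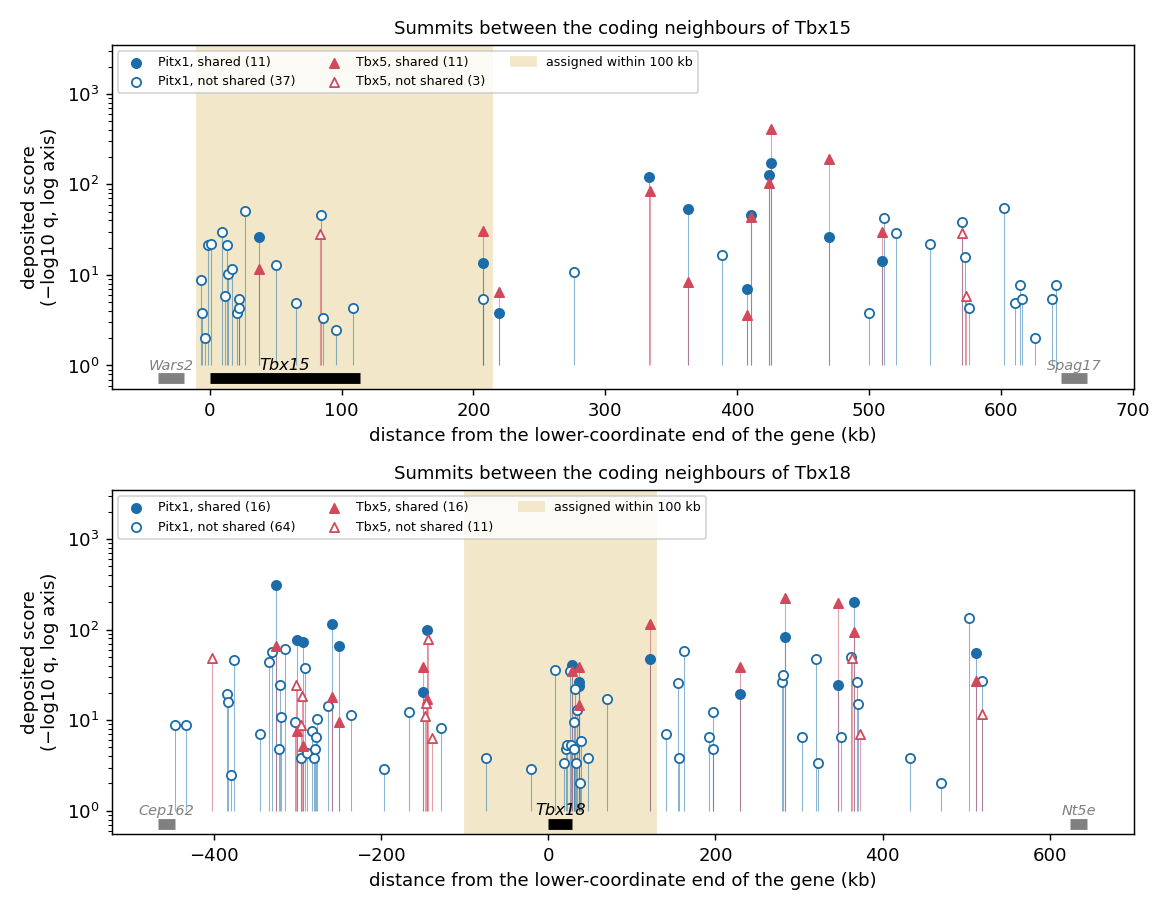
Deposited score (−log10 q, log axis) of each summit between the neighbouring protein-coding genes of Tbx15 (upper panel) and Tbx18 (lower panel) by distance from the lower-coordinate end of the gene (kb); circles are Pitx1, triangles Tbx5, filled symbols shared within 200 bp, and the shaded band the part within 100 kb that was assigned to the gene. The highest symbols lie outside the band in both panels, with Tbx5 reaching 405.5 above Tbx15 and Pitx1 311.4 below Tbx18.

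Summits of a shared pair are at most 200 bp apart by definition. The distance between the summits of a pair ran from 3 to 200 bp around Tbx15, with a median of 44 bp over 11 sites, and from 24 to 186 bp around Tbx18, with a median of 80.5 bp over 16 sites. The median over all shared sites was 60 bp. By the joint rank used above, 5 of the 11 and 5 of the 16 sites were in the best 10% of all shared sites. The Pitx1 partner was in the second list at 9 of 11 and 15 of 16 sites, and the exception at Tbx18 was the site at its start.

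The other T-box genes give the family background. Of 15 further members, 12 held a Pitx1 summit and 6 a Tbx5 summit, with medians of 3 and 0 per gene, and 5 held a shared site. Of all protein-coding genes, 55.1%, 18.8% and 8.85% did. By density, Tbx15 was number 4 and Tbx18 number 7 of the 17 for Pitx1, and number 7 and number 6 for Tbx5. Tbx2, which like Tbx3 represses transcription, had the highest densities at 344.6 Pitx1 and 86.2 Tbx5 per Mb from 12 and 3 summits in a short stretch of 34.8 kb. Tbx4, which acts in hindlimb outgrowth, had 19 and 3, Tbx3 21 and 6, and Tbx5 itself 23 and 5. Each of these 4 genes had 1 shared Tbx5 summit, against 2 at Tbx15 and 4 at Tbx18. These counts come from stretches of 34.8 kb at Tbx2 to 244.6 kb at Tbx5. With 1 in 34.8 kb at Tbx2 and 4 in 228.5 kb at Tbx18, they do not rank the genes by density.

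Tbx22, the third gene of the subgroup and known for its part in the palate, lies on chromosome X and held fewer summits than Tbx15 and Tbx18. It held 1 Pitx1 summit with a score of 15.1 and no Tbx5 summit in a stretch of 167.9 kb. Low counts were common. Among the genes with a stretch of 178.8 to 279.3 kb, somewhat longer, the median was 3 Pitx1 summits and 55.9% held no Tbx5 summit. T, which acts in the mesoderm of the early embryo, Tbx6 of the presomitic mesoderm and Tbx10 held no summit of either factor. Their stretches were short, at 49.4, 4.71 and 8.67 kb, which leaves little room for a summit. Tbx1, Tbx19, Tbr1, Eomes and Mga held 2 to 9 Pitx1 summits and none of Tbx5. Tbx20, a heart gene, and Tbx21, a gene of T cells, held 1 Tbx5 summit each, with scores of 3.10 and 5.81.

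**Figure D5:**
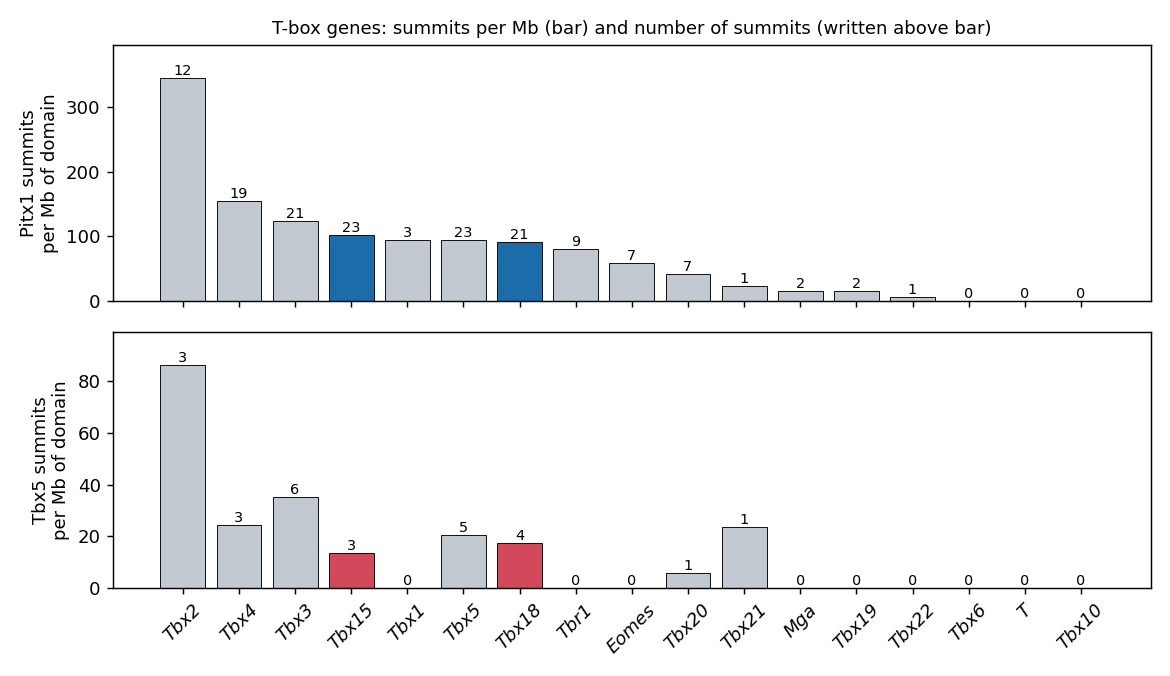
Pitx1 summits (upper panel) and Tbx5 summits (lower panel) per Mb of assigned stretch for 17 T-box genes in order of the Pitx1 density, with the number of summits written above each bar; Tbx15 and Tbx18 are coloured. Tbx2, Tbx4 and Tbx3 stand above both for Pitx1, and 9 of the 17 genes have no Tbx5 bar.

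Genes of the girdles and the proximal limb, where Tbx15 and Tbx18 act, were compared next. All 11 held summits of both factors, with medians of 16 Pitx1 and 5 Tbx5 summits, and 10 held a shared site, all but Twist1. Of all protein-coding genes, 55.1% held a Pitx1 summit, 18.8% a Tbx5 summit and 8.85% a shared site, and the medians were 1 and 0. Stretches in this list ran from 48.7 kb at Prrx2 to 466.3 kb at Gli3. The most Pitx1 summits were at Prrx1 and Meis1, with 30 each, and Meis2, with 24. Meis1, a proximal marker of the limb, had the most Tbx5 summits with 10, followed by Meis2 with 9 and Gli3, a mediator of hedgehog signalling, with 8. Emx2, a homeobox gene needed for the scapula, held 18 and 4, and Alx4, a paired-type gene of the anterior bud, 16 and 3. By density the medians of this list, 88.4 Pitx1 and 25.9 Tbx5 per Mb, set the members above it for Pitx1 and below it for Tbx5.

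The genes of the Groucho family were also occupied. All 6 held Pitx1 summits and 4 held Tbx5 summits, with medians of 7 and 2, where 55.1% and 18.8% of all protein-coding genes held one. Tle3 held 18 Pitx1 and 11 Tbx5 summits, 7 of them shared, Tle4 26 and 5, and Tle1 9 and 3. Tle2 and Tle5 had no Tbx5 summit. These 2 genes and Tle6 are neighbours on chromosome 10, with stretches of 18.3 to 22.0 kb. Tle2 and Tle6 overlap, and a summit in the overlap counts for each.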

How the data were processed

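Summit lists of 1 Pitx1 sample and 1 Tbx5 sample, out of 18 samples of the series, were analysed. The other samples (histone marks and inputs) are not analysed here. The build was mm10, and MACS2 2.1.1.20160309, HOMER, Bowtie2 2.2.6 and Bowtie 1.1.2 are listed without their roles, per the submitters' processing notes. The value beside each summit in the lists the authors deposited was read as −log10 of the q-value, since the lowest values (1.31 and 1.42) lie just above 1.30. The second Pitx1 list that the authors deposited also has an unexplained score and a pair of distances per summit, which were not used. Peak numbers reach 70575 in the Pitx1 list of 54941 summits and 17019 in the Tbx5 list of 10273. Some numbered peaks are therefore absent from both lists. Not given in the sources used here are the control library, read depth, pooling and how those peaks were left out.

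Positions were taken 1-based. Genes came from RefSeq (GRCm38.p6, 21887 protein-coding genes on assembled chromosomes). Each summit went to the nearest protein-coding gene within 100 kb, at distance 0 inside a gene, and to each gene where genes overlap. The stretch of a gene is the sequence that would be assigned to it. Summits of the 2 factors within 200 bp were called shared. Intervals on shares are exact Clopper-Pearson 95% intervals and cover counting error only. Alternatives changed the distance limit, the competing genes, the distance measure, the score minimum, the Pitx1 list and the sharing distance. Named items were the members with their 5 highest summits per gene and factor, all shared sites, the neighbouring genes, the 5 genes of most similar counts with ties, and the genes of 3 lists (T-box, girdle and proximal limb, Groucho) with most summits or none. A gene of the girdle list is not reported here. The members and lists were chosen with earlier results of these data known. Python 3.11.15, pandas 2.3.3, NumPy 2.4.6, SciPy 1.17.1 and Matplotlib 3.10.9 were used. Apart from the Tbx18 start, sequence at the summits was not analysed here.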

Additional observations from a re-analysis of the deposited data

How the results depend on the processing

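Counts of summits and shared sites, densities and second-list shares were recomputed under those of 12 alternatives that bear on each, 102 values in all, and 67 stayed within 1.5 times the count reported or within the counting interval of the share or density. The Pitx1 summits of Tbx15, 23 as reported, became 15 with scores of at least 5, 11 with scores of at least 10, 12 in the higher-scoring part of each list, 10 in the second Pitx1 list and 7 in a Pitx1 list as short as the Tbx5 list. Those of Tbx18, 21 as reported, became 13, 9, 10, 7 and 7, and were 40 within 500 kb and 12 when genes of any type competed. Densities followed, at 49.2, 53.7, 44.7 and 31.3 per Mb for Tbx15 and 39.4, 43.8, 30.6 and 30.6 for Tbx18 under a score of at least 10, the higher-scoring part, the second list and the shortened list. Within 20 kb, over a stretch of 68.5 kb, Tbx18 had 248.3 Pitx1 and 43.8 Tbx5 summits per Mb, and with genes of any type competing 7.55 Tbx5 summits per Mb. Tbx5 summits within 500 kb numbered 6 for Tbx15 and 12 for Tbx18, of which 5 and 8 were shared. With genes of any type competing, Tbx18 kept 1 Tbx5 summit, which was shared, the other 3 being nearer to or inside noncoding genes or pseudogenes such as Gm36767, and Tbx15 kept 1 shared site. Shared sites of Tbx15 also numbered 1 within 20 kb, within 100 bp of each other and with the shortened Pitx1 list. The second-list share of Tbx15 was 72.7% and that of Tbx18 66.7% with scores of at least 10, and 66.7% and 60% in the higher-scoring part, since that list keeps higher scores. In alternatives chosen after seeing the data, the 14 Pitx1 summits within 10 kb of the Tbx18 start became 6 with scores of at least 10, 5 in the second list, 7 within 5 kb and 16 within 20 kb, and the gene ends with at least as many, 11 as reported, became 16, 20, 34 and 69. The ranks of the 3 long stretches by shared sites, 2, 7 and 8 of 409, became 2, 6 and 1 with scores of at least 10, 3, 2 and 5 with the second list, and 4, 11 and 12 of 827 stretches of 300 to 900 kb. Percentiles and gene lists were not recomputed. No paired analysis was possible because each factor has 1 sample. Without read depth or replicates, a missing Tbx5 summit does not show that Tbx5 was absent from a site.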
